A study of Drosophila melanogaster with 4 samples.

Results

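Lethal (3) malignant brain tumour, L(3)mbt, is a chromatin protein of Drosophila melanogaster. Its binding was mapped by ChIP-seq, the sequencing of DNA recovered with an antibody against the protein, in larvae of the third instar kept at 25 °C. The tissue combined brains with wing and haltere discs and with discs of the third leg, so a signal cannot be assigned to one of these tissues. The L(3)mbt ChIP group has 2 samples, 1 of the w1118 stock and 1 of Canton S. The input group has 1 sample of each stock, made without an antibody. No deposited peak list names a stock or replicate, and each is taken here to stand for its group as a whole. Neither a value per stock nor an error between replicates can be had from them, and the sequencing depth is unknown. Intervals below cover counting error only and treat calls as independent.

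The regions described here are calls in the flanks of L(3)mbt peaks. They were taken from the authors' unfiltered ChIP list, whose regions are 270 bp wide and carry a height that is never below 5. A flanking call lay on 2L, 2R, 3L or 3R, with its centre 200 to 1000 bp from the nearest centre in the authors' list at a false discovery rate of 0.5%, and 200 bp or more from every centre in their list at 3%. Regions of the 0.5% list are called filtered peaks. Of 18529 unfiltered calls, 14809 were on these 4 arms and 2372 met the rule, which is 16.0% of the arm calls (exact 95% interval 15.4 to 16.6%). A further 180 calls in the distance range were set aside because a region of the 3% list was centred within 200 bp. The members were chosen by the positions of calls and peaks in the ChIP lists, and heights and scores come from the same ChIP, so all values on them are descriptions without a test.

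L(3)mbt carries MBT domains, which in this protein family bind methylated lysines of histone tails. Its loss leads to tumours of the larval brain, it is known as a repressor of genes, and the title of the study links it to insulator elements, sequences that separate neighbouring regulatory domains. A ChIP-seq peak caller reports places where sequenced fragments pile up. The authors' filtered lists hold some of those places as peaks, and how these were chosen is not stated in the sources at hand. The flanking calls are places beside a retained peak that the caller reported and on which neither filtered list is centred. Some of them reach into the filtered region itself. Their genes and sequences were not analysed here, because the chromosome names are those of genome release 5 and the gene table at hand is for release 6.

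More than 50% of the L(3)mbt peaks had a flanking call. Of 2655 filtered peaks on the 4 arms, 1174 (44.2%, exact 95% interval 42.3 to 46.1%) had none. A single flanking call was found at 870 peaks (32.8%, 31.0 to 34.6%), and 611 peaks (23.0%, 21.4 to 24.7%) had 2 or more. Among the latter, 397 had 2, 161 had 3, 42 had 4, 9 had 5 and 2 had 6. The mean was 0.893 calls per peak. The peaks themselves were well represented in the unfiltered list, since 2650 of the 2655 had a call within 200 bp of their centre, called the own call below, and 5 had none.

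**Figure D1:**
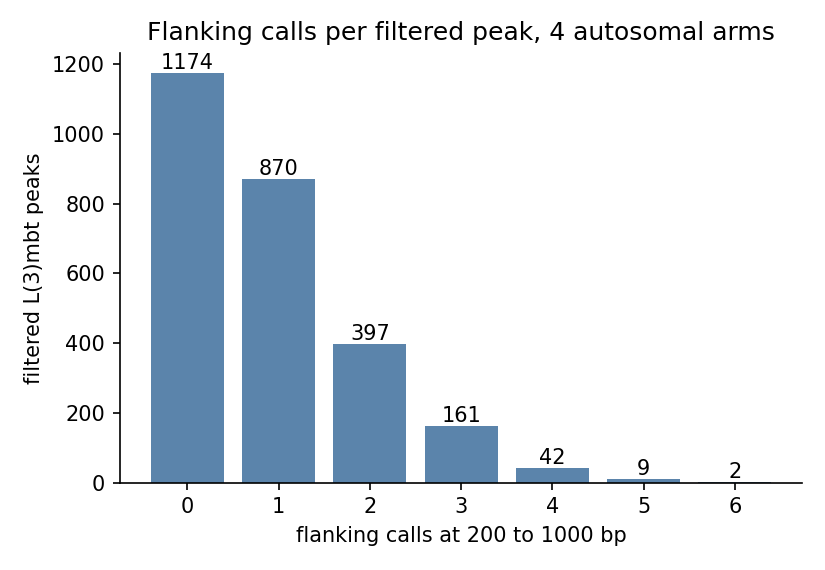
Number of filtered L(3)mbt peaks (vertical axis) by the number of unfiltered ChIP calls at 200 to 1000 bp (horizontal axis) on 2L, 2R, 3L and 3R; the number above each bar is its count of peaks. The count falls from 1174 peaks without a flanking call to 2 peaks with 6.

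Flanking calls were far denser than calls elsewhere on the arms. At 200 to 1000 bp there were 604.0 calls per Mb (exact Poisson 95% interval 580.0 to 628.9), counted over 3.93 Mb of positions that met the rule. At 10 to 20 kb from the nearest filtered peak, under the same rule on the 3% list, 1725 calls gave 89.9 per Mb (85.7 to 94.3). These are called the distant calls. The ratio was 6.72 (95% interval 6.31 to 7.15). At the distant density, 353.1 calls would lie in the flanks, or 0.133 per filtered peak, against the 2372 observed.

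The density was highest at some distance from the peak centre and then fell over the bins of 100 bp. It was 466.8 calls per Mb (409.9 to 529.5) at 200 to 300 bp and highest at 300 to 400 bp, with 804.4 (728.0 to 886.6). From there it declined to 777.2 at 400 to 500 bp, 706.6 at 500 to 600 bp, 663.0 at 600 to 700 bp and 525.4 at 700 to 800 bp. In bins of 50 bp the maximum was 868.5 per Mb (757.0 to 991.7), at 350 to 400 bp, and its interval overlapped that of the next bin, 838.2 (728.2 to 960.2). The median distance was 542 bp (order-statistic 95% interval 528 to 555), with 10% of the calls at or below 298 bp and 10% at or above 877.9 bp. Regions of both lists share bases when their centres are under 335 bp apart, and 364 flanking calls (15.3%) shared bases with their filtered region.

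The range of 200 to 1000 bp did not mark an end of the excess. The density was 322.7 per Mb at 1000 to 1100 bp and 206.4 at 1900 to 2000 bp. It was still 1.79 times the distant density (1.67 to 1.91) at 2000 to 5000 bp and 1.29 times (1.21 to 1.38) at 5000 to 10000 bp.

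**Figure D2:**
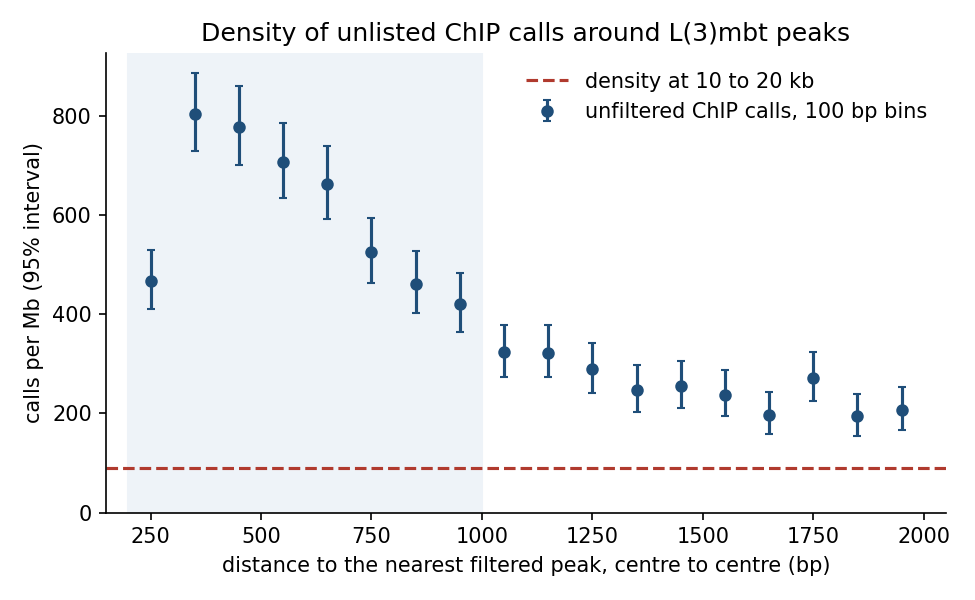
Density of unfiltered ChIP calls 200 bp or more from every region of the 3% list (vertical axis, calls per Mb; points are bins of 100 bp, bars are exact Poisson 95% intervals) by distance to the nearest filtered peak (horizontal axis, bp). The shaded range is that of the flanking calls; the density is highest at 300 to 400 bp, with 804.4 calls per Mb, and at 1900 to 2000 bp is still above the dashed line of 89.9 at 10 to 20 kb.

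Just inside 200 bp lay a call on 2R from 1589607 to 1589876 with a height of 9.31, at 200 bp. Calls on 2L from 4997161 to 4997430 and on 2R from 12949896 to 12950165, both at 201 bp, had heights of 5.03 and 5.25. Just outside, at 199 and 198 bp, calls on 3L (9502420 to 9502689 and 18665988 to 18666257) and on 3R (24983674 to 24983943) had heights of 5.91, 5.56 and 5.47. All but the first of these heights are near the minimum of the list. At the outer limit, the members on 2R (4781950 to 4782219 and 20199691 to 20199960) had heights of 7.16 and 9.97, and that on 3R (11114510 to 11114779) had a height of 6.32. The calls beyond it on 2L (7701549 to 7701818), 2R (18557071 to 18557340) and 3L (223565 to 223834) had heights of 8.11, 7.29 and 12.66, and the last of them was the only one of these 12 calls to overlap an input peak.

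Both sides of a peak were used about equally. Of the flanking calls, 1209 lay on the side of lower coordinates and 1163 (49.0%, exact 95% interval 47.0 to 51.1%) on that of higher coordinates. Binding peaks have no strand in the lists, so these sides have no relation to a gene. Calls on both sides were found at 347 peaks (13.1%, 11.8 to 14.4%), and 1134 had calls on 1 side only, 264 of them with 2 or more. A lower-side call was present at 35.03% and a higher-side call at 33.8% of the peaks, the product of which is 11.8%, or 314.6 peaks. The 347 observed lie above that number, and the difference was not tested.

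Some flanking calls overlapped one another. Of the flanking calls, 567 (23.9%) overlapped another flanking call. The share was 19.1% among the distant calls (330 calls), so such overlaps are common in this list. Among the 397 peaks with exactly 2 calls, 192 (48.4%, 43.3 to 53.4%) had 1 on each side and 205 had both on the same side. With overlapping calls on 1 side merged into 1, which was decided after seeing the data, 2064 sites remained, and 245 of 364 peaks with exactly 2 sites had 1 on each side (67.3%, 62.2 to 72.1%). How pairs are arranged thus depends on the merging. Merging left 1012 peaks with 1 site, 364 with 2, 96 with 3 and 9 with 4.

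Opposite flanks did not mirror each other. At the 347 peaks with calls on both sides, the nearest call on each side differed in distance by a median of 200 bp, and at 54 peaks the distances were within 50 bp of each other. Across these peaks Spearman's rho between the sides was 0.0076 for distance and -0.026 for height. Both values are across peaks of the same lists and are given as descriptions.

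Peaks with many flanking calls show both arrangements. The 2 peaks with 6 calls are given, and the 3 highest-scoring of the 9 with 5. The filtered peak on 3R (6614048 to 6614447, score 11.3, own call 21.7) had 3 calls on each side, whose heights lay between 5.01 and 8.96. The peak on 3R (20875057 to 20875456, score 7.68) had 6 calls on the higher side and 0 on the lower. Of those 6, 5 were centred between 361 and 472 bp from the peak with heights from 5.02 to 5.13, and overlapped each other, and the last lay at 810 bp with a height of 5.42. Of these 6 calls, 5 overlapped an input peak. The peak on 2L from 5999961 to 6000360 (score 21.6) likewise had 5 calls on the higher side, at 345 to 804 bp, with heights from 5.17 to 6.04. The peak on 2R from 3826452 to 3826851 (score 81.3) had 4 calls below and 1 above, with heights from 5.24 to 6.96, beside an own call of 191.9. The peak on 3L from 710552 to 710951 (score 35.9) had 2 below and 3 above, and its highest flanking call reached 14.8.

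Most flanking calls were low, so the name weak calls holds for the bulk of them and not for all. Their heights had a median of 6.85 (order-statistic 95% interval 6.73 to 6.98), 25% were at or below 5.61, 25% at or above 8.95, and the range ran from 5 to 478.6. The distant calls had a median height of 6.18 (6.09 to 6.26). Heights of 10 or more were found in 459 flanking calls (19.4%, exact 95% interval 17.8 to 21.0%). Of all unfiltered calls on the 4 arms, which include the own calls of the peaks, 31.2% reached it, and of the distant calls 7.83% did. Heights of 20 or more were found in 113 (4.76%, 3.94 to 5.70%), against 15.8% of all arm calls and 0.116% (2 calls) of the distant calls. Heights of 50 or more were found in 27 flanking calls and in 0 of 1725 distant calls, which allows a share of up to 0.174% (3 counts of the total).

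**Figure D3:**
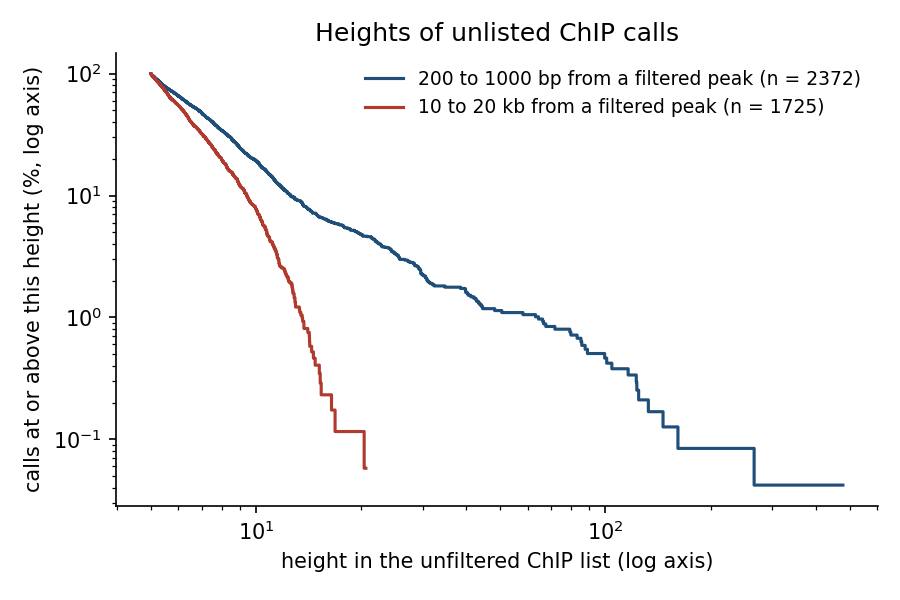
Share of calls at or above a given height (vertical axis, percent, log axis) by height in the unfiltered ChIP list (horizontal axis, log axis) for the 2372 flanking calls and the 1725 calls at 10 to 20 kb. Both curves start at a height of 5; the distant calls end at 20.6 and the flanking calls at 478.6.

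The excess of calls in the flanks was present in each of 5 bands of height, and grew with height. Calls of a height from 5 to below 6 were 5.12 times as dense in the flanks as at 10 to 20 kb (95% interval 4.63 to 5.65). The ratio was 5.98 (5.37 to 6.67) from 6 to below 8, 8.51 (7.13 to 10.2) from 8 to below 10 and 12.7 (10.4 to 15.6) from 10 to below 20. At 20 and above it was 276.0, with an interval from 74.7 to 2307 that reflects the 2 distant calls. High calls elsewhere are mostly regions of the 3% list and thus outside the rule, so the last ratio describes which high calls the filtered lists leave out. How far the same removal shapes the rise over the lower bands was not tested.

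High calls without a filtered region centred on them were mostly in these flanks. On the 4 arms, 2341 unfiltered calls had a height of at least 20, and 123 of them had no region of the 3% list centred within 200 bp. Of the 123, 113 were flanking calls and 10 were not. At a height of at least 50 the numbers were 1024 calls, of which 27 had no such region, and all 27 were flanking calls. Of all 14809 arm calls at any height, with or without such a region, 16.0% were flanking calls. The matching share among calls without such a region was not counted, so the size of this concentration is not given. The 113 high flanking calls belonged to 112 peaks. Of them, 51 (45.1%, exact 95% interval 35.8 to 54.8%) shared bases with their filtered region and 62 did not. At a height of at least 50, 10 shared bases and 17 did not. The median distance of the 113 was 346 bp (order-statistic 95% interval 327 to 378), and 94 of them (83.2%) lay within 500 bp. Among all 2372 flanking calls, 1032 (43.5%) lay under 500 bp. For comparison, neighbouring filtered peaks 200 to 1000 bp apart numbered 145, with a median spacing of 614 bp, and 45 of them (31.0%) were within 500 bp. No pair of filtered peaks on the arms was closer than 327 bp, while flanking calls start at 200 bp. The spacing of pairs is thus not a like comparison for the nearest calls.

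The 10 highest flanking calls had heights above 100. The highest lay on 3R from 12086162 to 12086431, with a height of 478.6, at 451 bp from the filtered peak on 3R from 12086548 to 12086947. That peak scored 333.1 and had an own call of 789.3, so its flanking call was at 60.6% of it. The next lay on 3R from 13442338 to 13442607 with a height of 266.6, at 599 bp from a peak that scored 126.6. Its height was 102.4% of that peak's own call of 260.4. On 2R, the call from 21077993 to 21078262 had a height of 161.4 at 959 bp, which was 123.8% of the own call of 130.3. These calls are of the size of peaks, and in both of the last cases the listed peak had the lower height of the pair in the unfiltered list.

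The other 7 of the 10 were lower than the own call of their peak. On 2L, the call from 1492287 to 1492556 had a height of 146.3 (47.7% of the own call) and that from 540956 to 541225 had 122.6 (87.9%). On 3R, the calls from 24460965 to 24461234, from 5694234 to 5694503 and from 17445521 to 17445790 had heights of 132.8, 123.0 and 116.2, at 43.5%, 57.5% and 29.9% of the own call. On 3L, the calls from 505756 to 506025 and from 711733 to 712002 had heights of 124.5 and 104.4, at 17.5% and 26.9%. Their distances ran from 297 to 595 bp. None of the 10 overlapped an input peak.

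Relative to the own call of the same peak, the typical flanking call was small. Over the 2364 flanking calls whose peak had an own call, the median was 20.6% of the own height, with 25% at or below 10.6% and 25% at or above 33.4%. A flanking call of at least 50% of the own height occurred 241 times, and 29 flanking calls were higher than the own call. The most extreme was on 3L from 7363288 to 7363557, with a height of 12.9 beside an own call of 6.37 and a score of 7.585. Because no call is listed below a height of 5, this percentage has a floor set by the own height, and low percentages cannot occur beside low peaks.

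**Figure D4:**
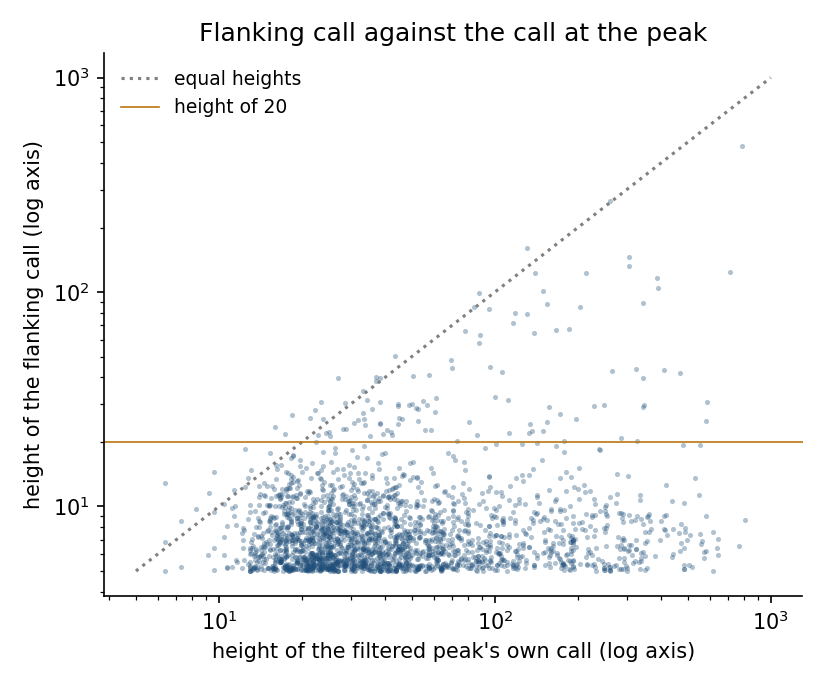
Height of each flanking call (vertical axis, log axis) against the height of the own call of its filtered peak (horizontal axis, log axis), both in the unfiltered ChIP list; the dotted line marks equal heights and the solid line a height of 20. Most points lie between 5 and 20 whatever the own height, and 29 lie above the dotted line.

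Height fell somewhat with distance, and the high calls that the rule keeps lay near the peak. The median height was 7.35 at 200 to 300 bp, 7.02 at 400 to 500 bp, 6.55 at 600 to 700 bp and 6.44 at 900 to 1000 bp. The share with a height of at least 20 was 11.98% at 200 to 300 bp, 10.8% at 300 to 400 bp, 5.21% at 400 to 500 bp and 3.20% at 500 to 600 bp. In each bin of 100 bp from 600 to 1000 bp it lay between 0.50% and 1.36%. Across the 2372 calls, Spearman's rho between height and distance was -0.12. From 1000 to 2000 bp, 1 call reached a height of 20. Most high calls on the arms have a region of the 3% list centred within 200 bp and are outside the rule. How far the fall of these shares with distance reflects that removal was not tested.

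The share of peaks with a flanking call showed no steady rise or fall with score, the authors' signal value for the filtered region. Peaks with a flanking call had a median score of 15.9 (order-statistic 95% interval 15.3 to 16.7, n = 1481), and those without had 15.4 (14.6 to 16.9, n = 1174). With the peaks in 10 equal groups by score, the share with a flanking call ran from 50.6% to 64.9%. In 4 equal groups by score, from group 1 (lowest) to group 4 (highest), it was 54.8% (exact 95% interval 50.9 to 58.7%) in group 1, 55.7% in group 2, 60.2% (56.3 to 63.9%) in group 3 and 52.4% (48.5 to 56.3%) in group 4. Across peaks, Spearman's rho between the number of flanking calls and the score was -0.027 (n = 2655). With the 3% list in place of the 0.5% list, the order of the ends turned, with 46.6% in its lowest-scoring 25% and 52.9% in its highest-scoring 25%. Within the higher-scoring 50% of the filtered peaks alone, the share was 64.2% (58.7 to 69.3%) in the lowest-scoring 25% and 53.9% (48.4 to 59.4%) in the highest-scoring 25%.

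The highest-scoring peaks had fewer calls each, while the distant calls around them were sparser too. The number of flanking calls per peak was 0.893, 0.931, 0.998 and 0.752 from group 1 to group 4. Both sides were occupied at 9.94% of the peaks in group 4 (7.77 to 12.5%) against 14.9% (12.3 to 17.9%) in group 3. Distant calls were at 71.9 per Mb around group 4 against 106.9 around group 1. The ratio of flank to distant density was 5.79 (5.12 to 6.57) in group 1, 6.15 (5.45 to 6.95) in group 2, 7.97 (7.03 to 9.06) in group 3 and 6.90 (6.04 to 7.88) in group 4.

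The share of high calls and their placing differed more between the score groups. The share with a height of at least 20 was 0.843% (0.274 to 1.96%) in group 1, 2.10% (1.12 to 3.57%) in group 2, 6.19% (4.48 to 8.31%) in group 3 and 10.8% (8.23 to 13.9%) in group 4. Own heights rose with score (Spearman's rho 0.96, n = 2650), and only 29 of 2364 flanking calls were higher than the own call. A height of 20 thus has little room beside the lowest-scoring peaks. The rise of this share with score was not tested apart from that limit. The median height was 6.81 in group 1 and 7.16 in group 4. At 200 to 300 bp, the density was 577.4 per Mb (453.4 to 724.8) around group 1 and 235.8 (160.2 to 334.8) around group 4. At 300 to 400 bp it was 686.3 (548.2 to 848.6) and 876.6 (722.4 to 1054). The flanks of group 4 were thus densest at 300 to 400 bp, with few calls inside that distance. The median distance was 547 bp in group 1 and 519 bp in group 4.

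**Figure D5:**
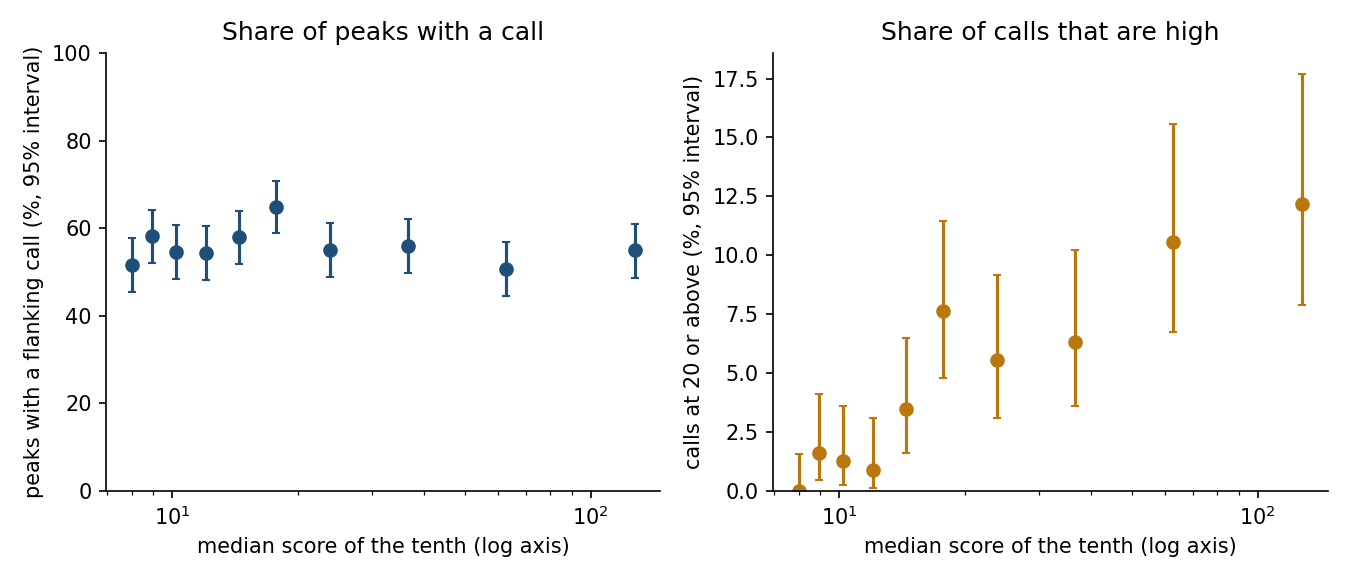
Share of filtered peaks with a flanking call (left, percent) and share of flanking calls with a height of at least 20 (right, percent) for 10 equal groups of filtered peaks by score, each placed at its median score (horizontal axes, log axes); bars are exact binomial 95% intervals. The left shares stay between 50.6% and 64.9%, and the right shares go from 0 in the lowest group to 12.2% in the highest.

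The strongest sites of all are described singly. Among the 15 highest-scoring filtered peaks on the 4 arms, 5 had a flanking call (33.3%, exact 95% interval 11.8 to 61.6%) and 10 had none, including the strongest peak of all, on 3R (10921417 to 10921816). The interval includes the 55.8% of all peaks, so a difference was not detectable with 15 peaks, and of the highest-scoring 10% of the peaks 54.9% had a flanking call. Those 5 peaks had 6 flanking calls. Beside the call of 478.6 and that of 124.5 named above, they were low. The peak on 3R from 21019530 to 21019929 had a call from 21019181 to 21019450 with a height of 5.36, at 414 bp, and that on 2R from 16771979 to 16772378 had one from 16772648 to 16772917 with a height of 6.70, at 604 bp. The peak on 3R from 3635897 to 3636296 had a call on each side, from 3635541 to 3635810 with a height of 6.11 and from 3636946 to 3637215 with a height of 5.77. These 4 calls were between 1.00% and 1.20% of the own height of their peaks.

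The shares and distances were close to each other on the 4 arms and on X, which the rule did not use, while the excess over distant calls was lower on X. The share of peaks with a flanking call was 52.9% on 2L, 59.1% on 2R, 53.4% on 3L and 57.2% on 3R, and the median height lay between 6.79 and 6.95. On X, 314 of 609 filtered peaks (51.6%, exact 95% interval 47.5 to 55.6%) had a call by the same rule. The 500 such calls on X had a median height of 6.56 and a median distance of 544 bp, and 25 of them reached a height of 20. Their density was 5.51 times that at 10 to 20 kb on X (4.84 to 6.27), against 6.72 times (6.31 to 7.15) on the 4 arms together and from 5.72 to 7.57 times on single arms. The difference between X and the arms was not tested.

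Flanks of filtered peaks close to one another were fuller per base. Of the 2655 peaks, 491 had another filtered peak within 2000 bp. Their flanks held 779.1 calls per Mb, 8.33 times the distant density of the same peaks (6.94 to 10.02), and those of the 2164 isolated peaks held 577.4, or 6.45 times (6.03 to 6.90). A close neighbour shares the flank, and the share of peaks with a call was 53.6% (49.0 to 58.0%) against 56.3% (54.2 to 58.4%). Each position counts for its nearest peak, so a close neighbour takes away outer parts of the flank, where the density was lower. The median distance of the calls was 516 bp, against 547.5 bp around isolated peaks. The difference per base was not tested apart from this.

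Regions that only the 3% list holds also had flanking calls, with few high ones, as around the lowest-scoring filtered peaks. Around 1003 such regions on the 4 arms, 465 (46.4%, 43.2 to 49.5%) had a call at 200 to 1000 bp by the same distances, with the nearest region of the 3% list as centre. The 715 calls had a median height of 6.59 and were 6.39 times as dense as those at 10 to 20 kb (5.63 to 7.26). Of these, 1 (0.140%) reached a height of 20, against 113 of 2372 around the filtered peaks. Around the lowest-scoring 10% of the filtered peaks, which are nearest in score, 0 of 233 did.

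Few flanking calls overlapped an input peak, a list the rule did not use. It is not known here if the authors scored input against ChIP when they made that list, in which case input peaks near ChIP signal would be few by construction. Of the 2372, 127 (5.35%, exact 95% interval 4.48 to 6.34%) overlapped an input peak by 1 bp or more. The share was 8.62% of all unfiltered ChIP calls on the arms and 11.7% of the distant calls (10.2 to 13.3%). With the peaks in 10 equal groups by score, the share among flanking calls was 10.3% in the lowest group and between 3.17% and 7.76% in the others. It was 3.97% of the calls within 200 bp of a filtered peak (3.27 to 4.78%). Within bands of height, the share was 5.56% for flanking and 10.4% for distant calls from 5 to below 5.5, 5.496% and 13.3% from 6 to below 8, and 5.19% and 11.6% from 8 to below 12. From 5.5 to below 6 it was 7.46% and 11.8%. From 12 to below 20 it was 3.85% of 156 flanking and 2.44% of 41 distant calls, and at 20 and above 1 of 113 and 0 of 2 overlapped, too few distant calls for a comparison. No flanking and no distant call had an input peak centred within 100 bp, while 313 (13.2%) and 495 (28.7%) had one within 500 bp. The ChIP calls and input peaks thus left each other out at close range, and how this came about was not tested. The overlap shares therefore do not measure the input signal under a call. The median distance to the nearest input centre was 1583 bp (1528 to 1653) for flanking and 910 bp (858 to 967) for distant calls.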

How the data were processed

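ChIP and input DNA of 2 stocks were sequenced and peaks listed by the authors. The submitters' processing notes list Bowtie, without a role or version. The lists themselves name the caller, pypeak. Its settings, the genome build and any pooling are not stated in the sources at hand. Each deposited list gives 1 signal value per region, made by the authors: the score in the filtered lists (400 bp) and the height in the unfiltered ChIP and input lists (270 bp). Scaling is not stated, so values were compared within a list only. The lowest scores in the filtered lists are 7.5025 (0.5%) and 5.5025 (3%), rates read from how the authors named them. Columns belonging to other samples numbered 0.

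Distances are between centres, and each call was assigned to its nearest filtered peak. Coordinates count from 1. Densities use the arm positions that meet the same distances, up to the last listed region. Intervals are exact (binomial, Poisson) or, for medians, from order statistics, at 95%. Regions named are the 10 highest calls, the 5 peaks with most calls (ties by higher score), the calls of the 15 highest-scoring peaks and 3 calls on each side of each limit. The call of the greatest percentage of its own height was named after its values were seen. Members and lists were chosen with earlier results of these data known. No test was made, since the rule used the ChIP lists. The counting was tested on simulated data. Tools were matplotlib 3.10.9, pandas 2.3.3, scipy 1.17.1, numpy 2.4.6 and Python 3.11.15.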

Additional observations from a re-analysis of the deposited data

How the results depend on the processing

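No paired analysis was possible because no list names a stock or replicate. Leaving out a replicate was not possible for the same reason. Of 88 repeats of 9 results under 10 settings, 57 stayed within the counting interval of the reported value (for the number of calls, within 1.5 times). With the 3% list as anchor, 52.3% of peaks had a flanking call and 11.7% had both sides, the density ratio was 7.91 and the lowest-scoring 25% had a share of 46.6%, below the 52.9% of the highest-scoring 25%, which turns the order of the reported 54.8% and 52.4%. The higher-scoring 50% of the peaks, fewer by construction, had 1163 calls, a density ratio of 7.54 and an input overlap of 4.39%. Within them, 64.2% of the lowest-scoring 25% and 53.9% of the highest-scoring 25% had a flanking call. Calls sharing no base with the filtered region gave 50.1% of peaks, 9.94% with both sides, a median distance of 598 bp, and 47.9% and 48.6% in the highest-scoring and lowest-scoring 25%. The range of 200 to 2000 bp gave 65.0%, 19.4%, 725 bp, a median height of 6.61, a ratio of 4.63, and 61.6% and 64.2% in the highest-scoring and lowest-scoring 25%. A height of at least 6 left 1555 calls, 44.5% of peaks, 6.93% with both sides, a median height of 8.13, a ratio of 8.04, and 42.5% and 43.8% in the highest-scoring and lowest-scoring 25%. Counting each call for every peak in range gave 58.0%. Setting aside calls that overlap an input peak gave 53.3% and a ratio of 7.20. Merging overlapping calls, added after seeing the data, gave a median height of 7.17. With X added, or with isolated peaks alone, all 9 results stayed within those limits. The shares with a flanking call therefore depend on the distance range and on the minimum height, and the excess over 10 to 20 kb held in each of the 9 settings that gave a ratio, from 4.63 to 8.04. The lists hold no value per sample and the depth is unknown, so differences within the counting intervals were not detectable.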
